A study of Mus musculus with 5 samples.

Results

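The 10 genes described here are 7 annexins (Anxa1, Anxa2, Anxa4, Anxa5, Anxa6, Anxa7 and Anxa11) and 3 genes that act with dysferlin at the muscle cell surface (Trim72, Cav3 and Capn3). They were chosen by name as annexins and sarcolemma repair genes, with earlier results of these data known, and make up 10 of the 54232 genes in the table. Gene expression was measured by RNA sequencing of primary myoblasts from mouse leg muscle that had been kept for 72 h in a low-serum medium in which myoblasts differentiate and fuse. The libraries compared were 3 of wild-type (WT) and 2 of Elmo2EID/EID genotype. Elmo2EID/EID mice are homozygous for a knock-in allele of Elmo2, made by homologous recombination, in which an isoleucine of the Elmo inhibitory domain is replaced by an aspartate, and the study uses it as a form of ELMO2 that is biased to the open state. These mice are called EID/EID here. WT mice carry the normal allele, both groups were on a mixed C57BL6 and 129SV background, and the mice were 6 to 8 weeks old. Every cell of the animal carries the knock-in, so the genotype is not restricted to muscle. The sources used here do not say which replicate came from which animal, sex or day, so p-values measure only the spread between these 5 samples.

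When a muscle fibre or a myotube is torn, calcium enters through the wound and a repair cap is built from membrane within seconds. Annexins bind phosphatidylserine-rich membrane in a calcium-dependent way and assemble at the edge of the wound, TRIM72 (also called MG53) brings vesicles to it, dysferlin is the calcium-sensing ferlin that takes part in vesicle docking and fusion, caveolin-3 forms the caveolae of muscle, and calpains cut cytoskeletal and repair proteins. Loss of dysferlin, caveolin-3 or calpain-3 causes muscle disease in humans, and annexins and phosphatidylserine exposure have also been linked to myoblast fusion.

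Recovered library depth was 35021856 to 49381544 reads per sample. The members had 2413 to 39310 reads in a sample, so that counting error alone gave a coefficient of variation of at most 2.04%, below most of the spread between replicates. Myotube markers (Ckm, Acta1, Myh3 and 7 others) summed to 1976050 to 2340610 normalized counts and were present in all 5 samples, and myoblast markers (Pax7, Myf5, Myod1, Des, Cdh15 and Itga7) summed to 272644 to 308922. A normalized count is the number of reads of a gene divided by the size factor of its library. Elmo2 itself was at 1642, 1539 and 1660 normalized counts in WT replicates 1 to 3 and at 1441 and 1327 in EID/EID replicates 1 and 2 (log2 fold change -0.22, limma adjusted p = 0.226), but a gene-level count does not show a base substitution and so checks no label.

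All 10 members were expressed and passed the filter on low values. One of them, Trim72, was lower in EID/EID myoblasts at an adjusted p under 0.05 (limma, Benjamini-Hochberg over 18156 genes), and none was higher. Across all genes tested 1.14% were called lower and 2.23% were called in either direction. The median log2 fold change of the 10 members was -0.14, beside 0.01 over all genes tested, and 8 of the 10 values were below 0. The groups did not overlap for 3 members, Trim72, Anxa1 and Anxa6, each with both EID/EID samples below every WT sample. Over all genes tested, 15.9% were separated in that direction and 32.6% in either direction. The same 3 members had an unadjusted limma p under 0.05, against 15.2% of all genes.

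**Figure D1:**
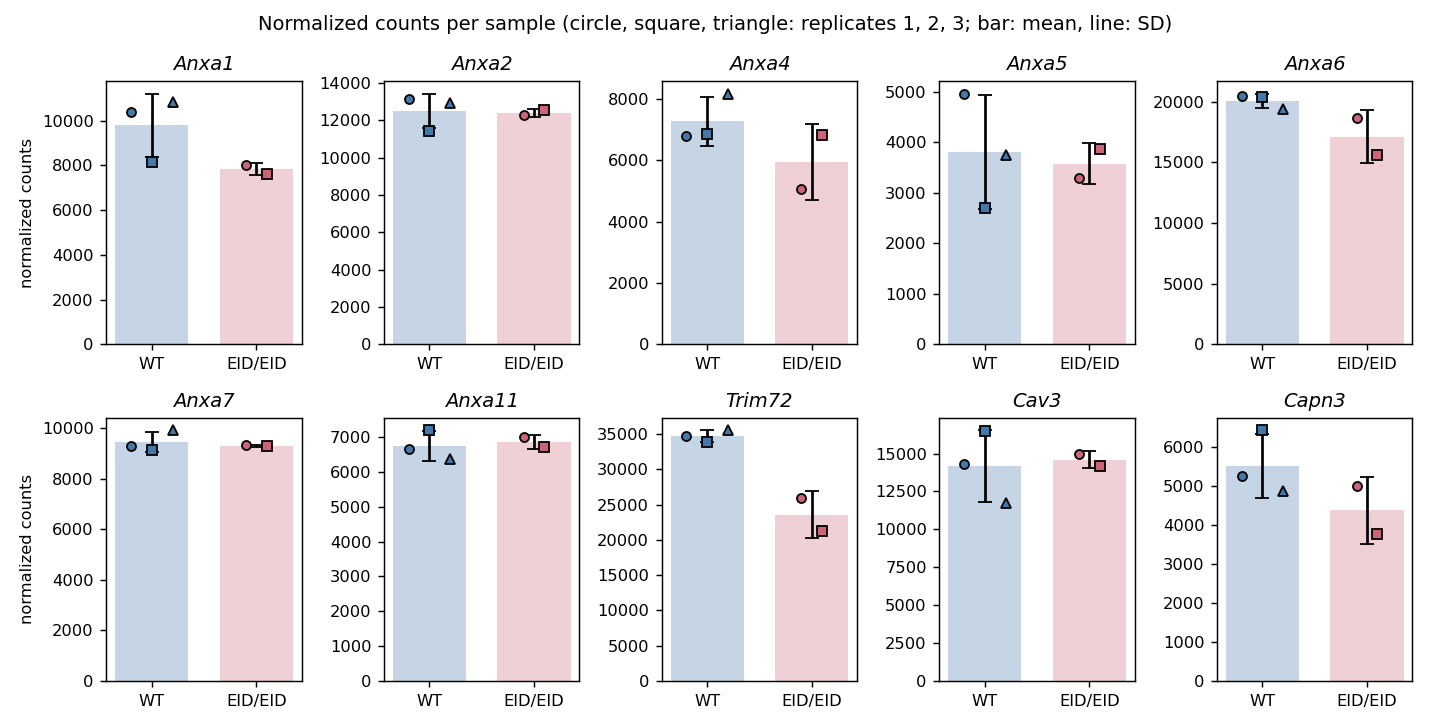
Normalized counts (y axis, from 0) of the 10 members in 3 WT (blue) and 2 EID/EID (red) samples, with circle, square and triangle for replicates 1, 2 and 3, bars for the means and lines for the SD. Both EID/EID samples lie below all WT samples for Anxa1, Anxa6 and Trim72, and the groups overlap for the other 7 genes.

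Levels of different genes were compared as normalized counts per kb of exon. Trim72 was the highest member in WT samples with a mean of 15537, followed by Cav3 with 12248 and Anxa6 with 6859. Trim72 lay above 99.5% and Capn3, the lowest member, above 88.1% of the 14339 protein-coding genes tested, so that the whole group is abundant in these cultures. Anxa1 and Anxa2 stood at 3362 and 3349 per kb and were not separated, their ranges over the 5 samples overlapping. Anxa5 followed at 2144, then Anxa11 at 1630, Anxa7 at 1577, Anxa4 at 1566 and Capn3 at 1100 per kb in WT, and each of these overlapped with its neighbour in the order. Clear steps, with no overlap over all 5 samples, were seen between Cav3 and Anxa6, between Anxa6 and Anxa1, and between Anxa2 and Anxa5. In EID/EID samples the first place was changed: Cav3 had 12603 per kb and Trim72 10569. Within each genotype these 2 genes did not overlap, and their ranges over all 5 samples overlapped because the order changed.

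**Figure D2:**
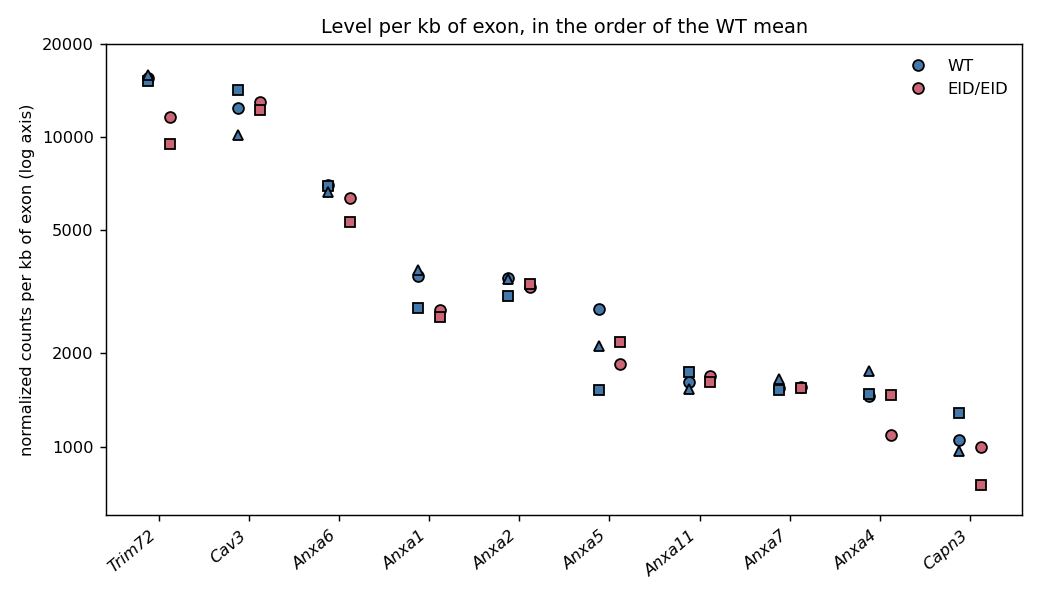
Normalized counts per kb of exon (log axis) of each member in 3 WT (blue) and 2 EID/EID (red) samples, ordered by the WT mean, with circle, square and triangle for replicates 1, 2 and 3. Trim72 and Cav3 stand highest, Anxa6 lies apart between them and the other annexins, and the levels from Anxa5 to Capn3 run into each other.

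Trim72 (ENSMUSG00000042828, GRCm38 chromosome 7, 128003949 to 128011033, plus strand) encodes the muscle-enriched tripartite-motif protein that nucleates the repair patch. Its normalized counts were 34732, 33826 and 35527 in WT samples and 25931 and 21268 in EID/EID samples. The WT samples lay close together, with a coefficient of variation of 2.45%, while the EID/EID samples were further apart at 14.0%, and both stood below the lowest WT sample. The mean fell by 32.0%, from 34695 ± 851 (SD, n = 3) to 23600 ± 3297 (SD, n = 2), and the log2 fold change was -0.56 ± 0.09 (SE) with a 95% interval from -0.79 to -0.34 (limma adjusted p = 0.0376). On the recovered reads Trim72 was also called by edgeR (adjusted p = 0.0387, 2.25% of all genes called) and by DESeq2 (adjusted p = 1.02e-05, 5.79% called), and it was the only member either tool called. In limma the call was close to the threshold and was lost when any one library was left out, with adjusted p of 0.143, 0.0948 and 0.0766 without WT replicate 1, 2 or 3 and of 0.0623 and 0.229 without EID/EID replicate 1 or 2. With an EID/EID replicate left out, the one that remains is assumed to vary like the WT samples, and calls over all genes fell from 404 to 94 and 34. The log2 fold change of Trim72 then ran from -0.71 without EID/EID replicate 1 to -0.42 without replicate 2. The call was also lost without a filter on low values (adjusted p = 0.119), under a filter that asked for a mean of 50 normalized counts (0.0501), without the mean-variance trend (0.169) and with the replicate number as a block (0.0847).

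The 300 bases around the annotated RefSeq start of Trim72 and of Cav3, the 2 most abundant members per kb and both enriched in striated muscle, are shown here from RefSeq on GRCm38.p6, with 250 bases before and 50 bases from the start. Capitals mark E-boxes, written CANNTG, the hexamer bound by MyoD, myogenin and many other helix-loop-helix factors, which reads the same on both strands. The Trim72 window is chr7:128004128-128004427 and the Cav3 window is chr6:112459255-112459554, both on the plus strand.
Trim72: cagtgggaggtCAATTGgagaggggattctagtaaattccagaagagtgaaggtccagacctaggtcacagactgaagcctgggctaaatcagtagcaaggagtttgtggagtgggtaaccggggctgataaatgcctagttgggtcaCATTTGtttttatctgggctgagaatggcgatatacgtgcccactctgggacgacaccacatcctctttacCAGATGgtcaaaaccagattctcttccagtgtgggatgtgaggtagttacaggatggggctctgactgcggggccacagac
Cav3: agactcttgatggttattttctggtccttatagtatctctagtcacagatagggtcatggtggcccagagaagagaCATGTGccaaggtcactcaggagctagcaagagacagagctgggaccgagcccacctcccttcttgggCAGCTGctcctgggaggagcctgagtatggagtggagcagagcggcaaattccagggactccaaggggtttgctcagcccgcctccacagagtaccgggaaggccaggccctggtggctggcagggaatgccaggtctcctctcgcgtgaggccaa

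The Trim72 window held 3 E-boxes, a number reached by 17.6% of 32851 promoter windows of 300 bases, and none of them was CAGCTG. The Cav3 window held 2, as 39.6% of windows do or exceed, and one of these was CAGCTG, a form present in 16.3% of windows. An E-box of any form is common, being present in 72.3% of windows, and a match is a description of the letters and not of a bound site. Windows were matched for 9 of the 10 members. Among the other members, E-boxes ranged from 0 in the Anxa2 window to 5 in one of the 2 Anxa7 windows.

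Cav3 (ENSMUSG00000062694, chromosome 6, 112459505 to 112472872, plus strand) encodes caveolin-3, the muscle form of the caveolar coat protein. Its normalized counts were 14320, 16455 and 11737 in WT and 14982 and 14181 in EID/EID samples. Both EID/EID values lay inside the WT range. The log2 fold change was 0.05 with a 95% interval from -0.27 to 0.38 (limma adjusted p = 0.893), and the samples do not separate the values inside it. Capn3 (ENSMUSG00000079110, chromosome 2, 120456019 to 120504913, plus strand) encodes the muscle calpain. It was at 5260, 6441 and 4872 normalized counts in WT and at 4999 and 3779 in EID/EID samples. The groups overlapped through EID/EID replicate 1, and the log2 fold change of -0.34 (95% interval -0.70 to 0.03) did not pass the test (limma adjusted p = 0.372). Capn3 shares 386 bases of exon with its neighbour Ganc on the same strand, where reads of these genes cannot be told apart by position. Ganc was at 671 to 742 normalized counts and its groups overlapped.

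None of the 7 annexins among the members was called by limma, edgeR or DESeq2. An unadjusted limma p under 0.05 was found for 2, Anxa1 and Anxa6, beside 15.2% of all genes. These were also the annexins in which the groups did not overlap. Over all genes, 15.9% were apart in their direction and 32.6% in either direction. Anxa6 (ENSMUSG00000018340, chromosome 11, 54979108 to 55033445, minus strand), the annexin with a doubled core that forms part of the repair cap in muscle, was at 20503, 20368 and 19417 normalized counts in WT and at 18662 and 15591 in EID/EID samples. WT samples were again close together, with a coefficient of variation of 2.95%, and the higher EID/EID sample was just below the lowest WT sample. The log2 fold change was -0.24 (95% interval -0.45 to -0.03) and did not pass the test (limma adjusted p = 0.274). Anxa1 (ENSMUSG00000024659, chromosome 19, 20373428 to 20390944, minus strand), which is cut by calpain and partners S100A11, was at 10382, 8163 and 10818 in WT and at 8028 and 7635 in EID/EID samples. WT replicate 2 lay much nearer to the EID/EID samples than to the other WT samples. Its log2 fold change was -0.31 (95% interval -0.60 to -0.02, limma adjusted p = 0.298).

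Anxa2, Anxa7 and Anxa11 were the steadiest members. Anxa2 (ENSMUSG00000032231, chromosome 9, 69453620 to 69491795, plus strand), which forms a heterotetramer with S100A10 and binds dysferlin and AHNAK, was at 13117, 11427 and 12942 normalized counts in WT and at 12253 and 12530 in EID/EID samples. Its log2 fold change of -0.01 had a 95% interval from -0.19 to 0.18 (limma adjusted p = 0.970). Anxa7 (ENSMUSG00000021814, chromosome 14, 20455260 to 20480133, minus strand), an annexin with a long amino-terminal tail that binds ALG-2, was at 9301, 9127 and 9907 in WT and at 9315 and 9270 in EID/EID samples. Its log2 fold change was -0.02 (95% interval -0.17 to 0.13, limma adjusted p = 0.903). Anxa11 (ENSMUSG00000021866, chromosome 14, 25842156 to 25886804, plus strand), the other long-tailed ALG-2 partner, was at 6670, 7195 and 6361 in WT and at 6990 and 6704 in EID/EID samples, with a log2 fold change of 0.02 (95% interval -0.15 to 0.19, limma adjusted p = 0.911). In each of these 3 genes both EID/EID samples lay within the WT range, and the intervals leave room for changes of at most 0.19 in size on the log2 scale.

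Anxa4 and Anxa5 had the widest intervals of the 7 annexins. Anxa4 (ENSMUSG00000029994, chromosome 6, 86736840 to 86793584, minus strand), an annexin that bends membrane at a wound edge, was at 6786, 6850 and 8182 normalized counts in WT and at 5074 and 6824 in EID/EID samples. The higher EID/EID sample lay between the lower WT samples, and the log2 fold change was -0.30 (95% interval -0.64 to 0.04, limma adjusted p = 0.383). Anxa5 (ENSMUSG00000027712, chromosome 3, 36448923 to 36475894, minus strand), which forms lattices on phosphatidylserine and is widely used to stain it, was at 4965, 2707 and 3755 in WT and at 3290 and 3861 in EID/EID samples. WT replicates 1 and 2 spanned the whole range of Anxa5, with a WT coefficient of variation of 29.7%, the largest of any member. Its log2 fold change of -0.05 had a 95% interval from -0.60 to 0.50 (limma adjusted p = 0.943), so that this gene could have changed by more than Trim72 without being detected.

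Summed over the 12 mouse annexin genes listed, annexin reads came to 1808, 1586 and 1804 CPM (reads scaled to equal library totals) in the WT samples, and EID/EID samples had 1599 and 1581 CPM. WT replicate 2 was again near to the EID/EID samples, and the difference of -0.12 on the log2 scale was within the spread (exact permutation test over 10 splits, two-sided, p = 0.3, adjusted p = 0.480 over the 8 measures of this kind). It was -0.18 without WT replicate 2 and -0.09 without WT replicate 1 or 3. With 3 against 2 samples the smallest p this test can give is 0.1. Per kb of exon, Anxa6 took 31.0% ± 2.6 of annexin expression in WT (SD, n = 3), against 28.6% ± 3.4 for EID/EID (SD, n = 2). Anxa1 and Anxa2 took 15.1% each in WT, and 13.2% and 16.2% in EID/EID samples. The annexin set was thus led by Anxa6 in all 5 samples, with a share of 26.2% to 34.0%.

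A further 63 genes of the repair pathway were listed, of which 58 passed the filter on low values. Dysf and Ehd3 were called higher and none was called lower (limma, 2.23% of all genes called), with a median log2 fold change of 0.05. Dysf, the gene for dysferlin, was at 10596, 11201 and 9953 normalized counts in WT and at 25968 and 26828 in EID/EID samples, a log2 fold change of 1.32 ± 0.07 (SE, limma adjusted p = 0.000595). Ehd3, a dynamin-like ATPase of endosomal membranes, was at 988, 905 and 883 in WT and at 1227 and 1371 in EID/EID samples (log2 fold change 0.49, limma adjusted p = 0.0470). Its call was lost on leaving out any one library, with adjusted p of 0.116, 0.134 and 0.0892 without WT replicate 1, 2 or 3 and 0.136 and 0.326 without EID/EID replicate 1 or 2, while its log2 fold change stayed between 0.41 and 0.57. DESeq2 also called Cav2 higher and S100a11 lower (adjusted p = 0.0325 and 0.0390), 4 genes of this list in all, with 5.79% of all genes called.

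Among the direct partners of annexins, none of 6 S100 and Ahnak genes passed the limma test and 1 had an unadjusted limma p under 0.05, beside 15.2% of all genes. None was called by edgeR, and DESeq2 called S100a11, with 5.79% of all genes called by DESeq2. S100a10, the partner of annexin A2, was at 4914, 4104 and 4137 normalized counts in WT and 3909 and 4604 in EID/EID samples, and the groups overlapped. S100a11, the partner of annexin A1, was at 4609, 3574 and 3885 in WT and 2726 and 3227 in EID/EID samples, both below the lowest WT sample (log2 fold change -0.43, 95% interval -0.73 to -0.14, limma adjusted p = 0.165). The most abundant of the group per kb was S100a6, a small calcium-binding protein, with 10942 in WT and 11072 in EID/EID samples. Of 5 other annexins, Anxa3 had 4265 to 7005 normalized counts in WT and 6203 and 7106 in EID/EID samples. Anxa8 was far lower, at 195, 412 and 149 in WT and 526 and 451 in EID/EID samples, with the groups apart (log2 fold change 1.09, 95% interval 0.15 to 2.02, limma adjusted p = 0.258). Anxa9 reached 13.4 normalized counts, Anxa10 was at 0 in every sample, and Anxa13 did not exceed 3 reads in any sample. None of the 5 was called by limma, edgeR or DESeq2 on all samples, and 1 of them had an unadjusted limma p under 0.05 (15.2% of all genes). Anxa8 was called by limma without WT replicate 2 (adjusted p = 0.0251).

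In the group of caveolar and Ehd genes, limma and edgeR called 1 of 12 genes (Ehd3) and DESeq2 called 2 (Ehd3 and Cav2), with 2.23%, 2.25% and 5.79% of all genes called. An unadjusted limma p under 0.05 was found for 4 of the 12, beside 15.2% of all genes. Cavin4, the muscle cavin that acts beside caveolin-3, was the most abundant per kb and was at 42402, 44986 and 41125 normalized counts in WT and 36826 and 36901 in EID/EID samples, both below all WT samples (log2 fold change -0.22, 95% interval -0.38 to -0.05, limma adjusted p = 0.209). Cav1, the caveolin of endothelial cells, fibroblasts and myoblasts, was at 3067, 1484 and 2481 in WT and 3356 and 4214 in EID/EID samples (log2 fold change 0.74, 95% interval 0.07 to 1.42, limma adjusted p = 0.285). Ehd4, the other abundant gene of this group, had a log2 fold change of 0.02 (adjusted p = 0.947). None of 9 calpain genes was called by limma, edgeR or DESeq2 on all samples, and 0 had an unadjusted limma p under 0.05. Without WT replicate 3, limma called Capn5 higher and Capn6 lower (adjusted p = 0.0431 and 0.0319). Capns1, the small subunit of the ubiquitous calpains, and Capn1 were the most abundant per kb, and Capn2, the catalytic subunit of m-calpain, was at 11117, 9872 and 9312 in WT and 10534 and 10027 in EID/EID samples.

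None of 13 genes of ALG-2 and the ESCRT-III machinery, which pinches off damaged membrane, was called by any of the 3 tools, with 0 at an unadjusted limma p under 0.05, and the median log2 fold change was 0.04. Chmp4b, the core filament subunit, averaged 5095 ± 119 normalized counts in WT (SD, n = 3), and EID/EID samples averaged 4945 ± 220 (SD, n = 2), while Chmp2a averaged 2311 ± 83.5 and 2397 ± 114. None of 7 genes of vesicle exocytosis was called by any of the 3 tools. Beside 15.2% of all genes, 1 of the 7 had an unadjusted limma p under 0.05. Among them Vamp3, a vesicle SNARE, was at 4031, 3938 and 4417 in WT and 3426 and 3458 in EID/EID samples (log2 fold change -0.26, 95% interval -0.43 to -0.09, limma adjusted p = 0.138), and Stx4a, a plasma membrane SNARE, had a log2 fold change of 0.06 (adjusted p = 0.737). Of the 5 other partners of dysferlin and TRIM72, Bin1 and Myh9 were the most abundant per kb in WT samples. Their log2 fold changes were -0.09 (limma adjusted p = 0.639) and -0.24 (limma adjusted p = 0.256). In EID/EID samples Parvb, at 1703 per kb, stood above Myh9, at 1319. None of the 5 was called by any of the 3 tools, and 3 had an unadjusted limma p under 0.05, beside 15.2% of all genes. The 3 were Parvb, above the WT range in both EID/EID samples (log2 fold change 0.33), and Myh9 and Hdac6, below it. Of the other ferlins, Myof, the ferlin of myoblasts, was at 13116, 12532 and 13037 in WT and 13390 and 13571 in EID/EID samples. Its log2 fold change was 0.06 (95% interval -0.07 to 0.20, limma adjusted p = 0.673).

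**Figure D3:**
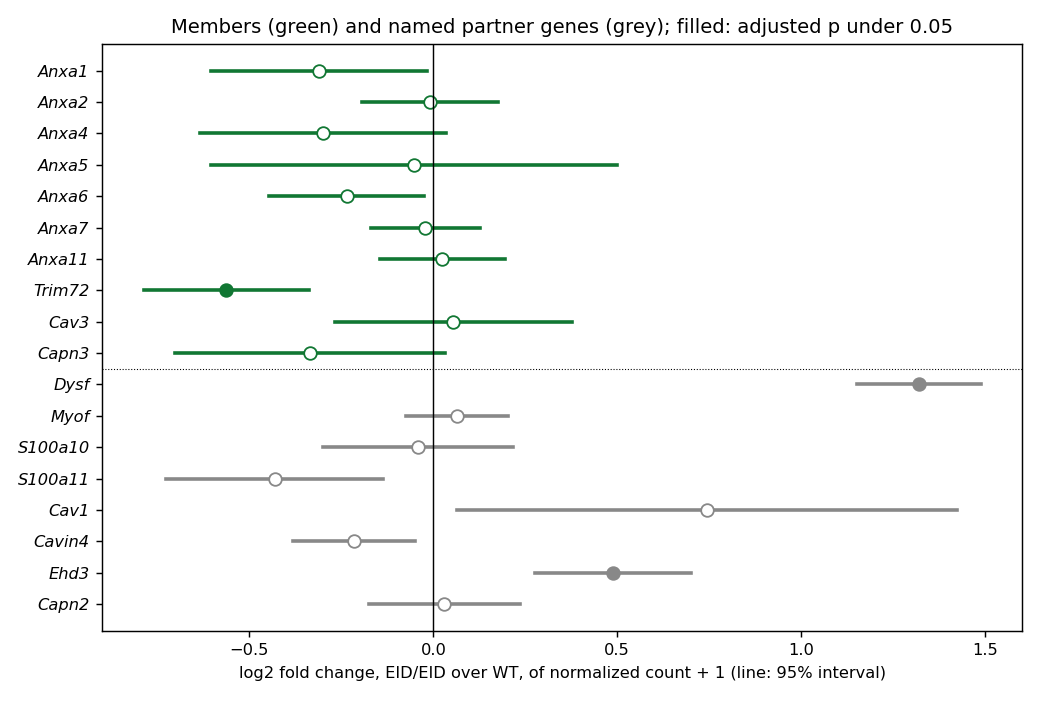
Log2 fold change of EID/EID over WT on normalized count + 1 (x axis) with the 95% interval of the limma fit, for the 10 members (green) and 8 partner genes (grey), filled where the adjusted p was under 0.05. Trim72 is the only filled member, at -0.56, and Dysf lies apart from all others at 1.32.

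Ratios within a sample do not depend on its size factor, and 7 of them were compared, each as log2 of normalized counts. The counts were not divided by exon length, so a ratio near 1 does not mean equal levels per kb. Per kb of exon, the EID/EID means were 10569 for Trim72 and 3170 for Dysf. The ratio of Trim72 to Dysf was 3.28, 3.02 and 3.57 in WT and 0.999 and 0.793 in EID/EID samples, a log2 difference of -1.88. The ratio of Cav3 to Dysf was 1.35, 1.47 and 1.18 in WT and 0.577 and 0.529 in EID/EID samples, a log2 difference of -1.27. The ratio of Anxa2 to Dysf was 1.24, 1.02 and 1.30 in WT and 0.472 and 0.467 in EID/EID samples, a log2 difference of -1.33. These 3 ratios share Dysf, and the higher Dysf of EID/EID samples alone lowers each of them. Their separation therefore says nothing of the other gene of the pair. The log2 fold changes of Cav3 and Anxa2 themselves were 0.05 and -0.01. In each of the 3 ratios the groups were apart, with the smallest p the exact permutation test allows (p = 0.1, adjusted p = 0.267 over the 8 measures).

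The ratios that did not involve Dysf differed less. Anxa2 to S100a10 was 2.67, 2.78 and 3.13 in WT and 3.13 and 2.72 in EID/EID samples (log2 difference 0.03, exact permutation p = 0.7). Anxa1 to S100a11, in which both genes had lower values in EID/EID samples, was 2.25, 2.28 and 2.78 in WT and 2.94 and 2.37 in EID/EID samples (log2 difference 0.12, exact permutation p = 0.5). Over the 5 samples these annexin to S100 ratios stayed between 2.67 and 3.13 and between 2.25 and 2.94, and in both the groups overlapped. Capn3 to Capn2 was 0.473, 0.652 and 0.523 in WT and 0.475 and 0.377 in EID/EID samples (log2 difference -0.36, exact permutation p = 0.3), and the difference was -0.53 without EID/EID replicate 1 and -0.20 without replicate 2. Cav3 to Cav1 was 4.67, 11.1 and 4.73 in WT and 4.46 and 3.36 in EID/EID samples (log2 difference -0.69, exact permutation p = 0.4). Both EID/EID samples lay below every WT sample in this last ratio, and the log2 difference was -0.28 without WT replicate 2. That sample stood apart, since it had the highest Cav3 and the lowest Cav1 of the WT samples.

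**Figure D4:**
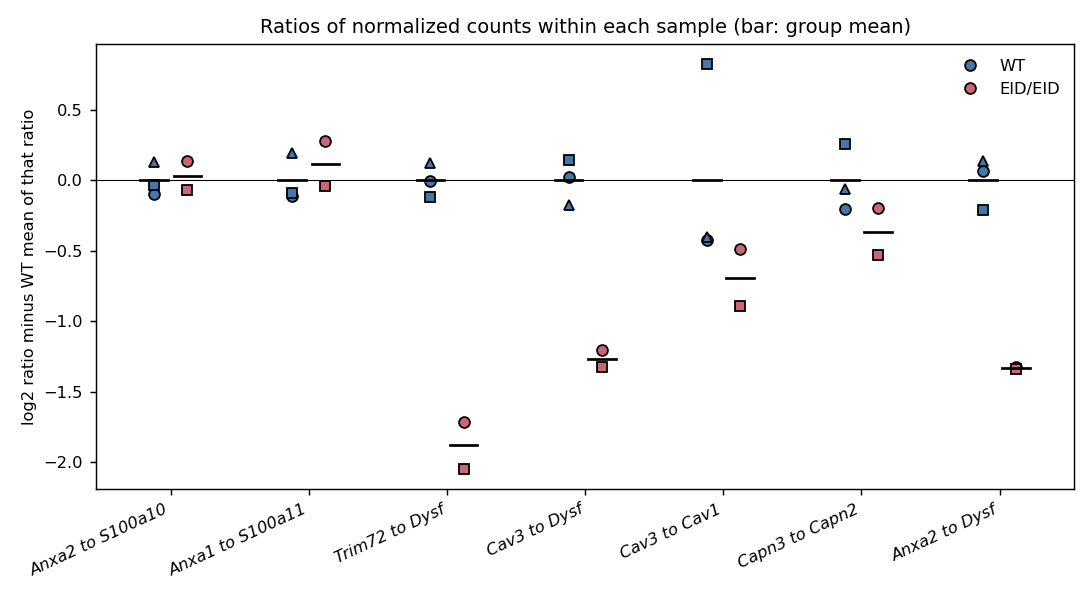
Log2 ratio of normalized counts of gene pairs within each sample, minus the WT mean of that ratio (y axis), in 3 WT (blue) and 2 EID/EID (red) samples, with circle, square and triangle for replicates 1, 2 and 3 and bars for group means. The 3 ratios to Dysf are lower in both EID/EID samples, while both annexin to S100 ratios overlap between the groups.

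The myoblasts had been selected with magnetic beads (a satellite cell isolation kit and beads against integrin alpha-7), a step meant to remove other cells of the muscle. Transcripts that mark such cells were still counted and differed between samples, and in bulk RNA fewer cells of a type and less RNA per cell cannot be told apart. Endothelial markers (10 genes) summed to 1856, 681 and 2029 normalized counts in WT and 3771 and 5642 in EID/EID samples, and 9 of the 10 lay above the whole WT range in both EID/EID samples, as 16.7% of all genes did. The tenth, Cldn5, had few reads and went the other way, at 6.18, 4.49 and 4.97 normalized counts in WT and 4.47 and 1.79 in EID/EID samples. None of the 10 was called by limma, and 7 had an unadjusted limma p under 0.05, beside 15.2% of all genes. Flt1 was called by edgeR, and Flt1 and Tie1 by DESeq2, with 2.25% and 5.79% of all genes called. Cav1 and Cav2 had the same order of groups as this sum. Fibroblast markers (9 genes, of which Pi16 and Lum did not exceed 3 reads) summed to 27899, 12207 and 15827 in WT and 13641 and 19357 in EID/EID samples, a sum led by Col1a1 and Col3a1. None was called by limma or edgeR. Beside 15.2% of all genes, 3 of the 9 had an unadjusted limma p under 0.05. Of these, Cd34 and Dcn lay above the WT range in both EID/EID samples (log2 fold changes 1.42 and 1.80), and Col3a1, which DESeq2 called, lay below it (-0.90). WT replicate 2 was the lowest WT sample for all 10 endothelial and 4 of 9 fibroblast markers, ties left out. It was also the lowest WT sample for 5 of the 10 members, Anxa1, Anxa2, Anxa5, Anxa7 and Trim72, while over all genes 33.2% were lowest there. WT replicate 2 was the highest WT sample for 3 members, Anxa11, Cav3 and Capn3, and for 5 of 6 myoblast and 7 of 10 myotube markers. Over all genes 33.5% were highest there.

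The 6 myoblast markers summed to 299470, 308922 and 295905 in WT and to 275738 and 272644 in EID/EID samples. Both EID/EID sums lay below every WT sum, and Des made up most of each sum. One marker, Pax7, was called lower by limma, as were 1.14% of all genes. It was at 922, 942 and 837 normalized counts in WT and 414 and 298 in EID/EID samples (log2 fold change -1.35, limma adjusted p = 0.00764). The markers did not all go one way, since 4 of 6 lay below the WT range in both EID/EID samples (15.9% of all genes). Myf5 lay above it (16.7% of all genes), at 3122, 2188 and 4399 normalized counts in WT against 5152 and 5254 (log2 fold change 0.74, limma adjusted p = 0.237). The 10 myotube markers summed to 2197480, 2340610 and 1976050 in WT and to 1981360 and 2208490 in EID/EID samples, overlapping between the groups, and none was called by the 3 tools or had an unadjusted p under 0.05. Pericyte markers summed to 12819, 12407 and 10989 in WT and to 10013 and 9956 in EID/EID samples. Abcc9 made up the largest share, at 5144 to 7209 normalized counts, while Kcnj8 of the same list was at or under 3 reads throughout. Whether the Abcc9 transcripts came from pericytes or from the myoblasts themselves was not tested. Rgs5 and Notch3 were called lower by limma, as were 1.14% of all genes. Cspg4 and Myh11 lay above the WT range in both EID/EID samples without passing the test (log2 fold changes 0.39 and 1.42, limma adjusted p = 0.264 and 0.250). Schwann cell markers summed to 233 to 737 in WT and to 593 and 856 in EID/EID samples, and macrophage markers to 79.8 to 232 over all samples. The part of these markers in the values of Trim72 and of the annexins was not tested.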

How the data were processed

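Primary myoblasts, differentiated for 72 h, were profiled in 3 WT and 2 Elmo2EID/EID (EID/EID) libraries, and groups and replicate numbers were taken from the sample titles. The authors prepared poly-A stranded libraries, aligned reads to GRCm38 with STAR 2.5.1b without trimming, counted uniquely mapped reads on the reverse strand with featureCounts 1.4.6 and deposited a signal, the count of each gene divided by the DESeq2 (1.34.0) size factor of the sample. Unique counting leaves out reads that fit several copies, so genes with near-identical copies can be undercounted. Pseudogene copies found with blastn 2.17.0 were at 0 in all samples for Anxa2, Anxa7 and Anxa11, and those of Anxa4 reached 29.8 normalized counts (Gm7240). The Anxa11 copies are identical to it over 602 and 657 bases, where unique counting drops their reads, so their 0 says little of their level. The smallest positive value of a sample was taken as 1 read, which made 100% of positive values whole within 0.01 of a read. The floor was set at 3 reads, equal to 2.65 to 3.73 normalized counts.

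Fold changes are differences of log2(normalized count + 1). A gene was kept when 1 or more samples reached 5 normalized counts, as the study's methods define expression, which left 18156 genes. Such fold changes understate the change of genes with low counts. The main test was limma 3.58.1 (lmFit, then eBayes with the trend option), two-sided and with no block, with Benjamini-Hochberg adjustment over all these genes and a threshold of 0.05. edgeR 4.0.16 and DESeq2 1.42.0 were run on the recovered reads. Ratios and summed annexins were compared by a two-sided exact permutation test. Chi-square tests of recovered reads between replicates of a group gave 24.2 to 34.4 per degree of freedom, so that no pair agreed within sampling noise. Counts were simulated with 200 changed genes in this comparison and the same spread beyond counting error for every gene. On these, limma recovered 11.5% at a log2 change of 0.5 (17846 genes fitted), 95.5% at 1 (17842 genes) and 100% at 2 (17827 genes). Gene names, positions and exon lengths came from GENCODE M21 on GRCm38, which matched 54165 of 54232 identifiers, and lengths are of the union of all exons, which are longer than most transcripts.

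All 10 members were named, and from the other lists every gene past the threshold, the 2 most abundant per kb in WT samples and Dysf, Myof, S100a10, S100a11, Cav1, Capn2 and Cavin4, with Elmo2. Cav2, Parvb, Hdac6, Pax7, Flt1, Tie1, Cldn5, Cd34, Dcn, Col1a1, Col3a1, Myf5, Des, Rgs5, Notch3, Cspg4, Myh11, Abcc9, Kcnj8, Capn5, Capn6, Anxa9, Anxa10, Anxa13 and the neighbours of Trim72 were named after their values were seen. The members and lists were chosen with earlier results of these data known. Alternatives tried were other pseudocounts, filters and normalizations, other tools, a block for the replicate number, and fits without each sample in turn.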

Additional observations from a re-analysis of the deposited data

How the results depend on the processing

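No member was called, against 1 in the fit reported, in 9 of 16 alternatives: no filter, a mean of at least 50 normalized counts, no trend, the replicate block, and each of the 5 samples left out (0 to 0 called). Trim72 was below 0 in all 16, with log2 fold changes from -0.58 to -0.55 over the processing alternatives and adjusted p from 1.02e-05 to 0.169. Calls of the longer list of 63 genes fell from 2 to 1 (Dysf) with no filter, the stricter filter, equal totals, no trend and the replicate block, rose to 4 with DESeq2, and ran from 1 to 3 on leaving out a sample, with other genes gaining calls (Anxa8 without WT replicate 2, Capn5 and Capn6 without WT replicate 3). Calls over all genes were 404, against 155 with no filter, 244 with the stricter filter, 144 without the trend, 969 with DESeq2, 224 with the replicate block and 34 to 335 on leaving out a sample. Directions near 0 turned: with the replicate block, Anxa2 was at 0.0174, Anxa7 at 0.0123, Anxa11 at -0.0171 and Cav3 at -0.0747. On leaving out a sample, Anxa2 ran from -0.0724 to 0.0271, Anxa5 from -0.277 to 0.161, Anxa7 from -0.0469 to 0.0123, Anxa11 from -0.0171 to 0.0717, Cav3 from -0.0747 to 0.169, the log2 difference of Anxa2 to S100a10 from -0.0687 to 0.135 and that of Anxa1 to S100a11 from -0.0379 to 0.278. Anxa1, Anxa4, Anxa6 and Capn3 kept values below 0 in all 16 alternatives, with none called, but their sizes depended on single samples: Anxa4 was at -0.0864 without EID/EID replicate 1 and -0.514 without replicate 2, Anxa6 at -0.366 and -0.106 and Capn3 at -0.538 and -0.134, and Anxa1 ran from -0.437 without WT replicate 2 to -0.234 without WT replicate 3. The log2 difference of Cav3 to Cav1 ran from -0.902 to -0.278 and that of Capn3 to Capn2 from -0.531 to -0.198, and the summed annexins from -0.184 to -0.0896. WT replicate 3 has no partner, so the replicate block gives the same fold changes as leaving it out. The replicate numbers come from the titles and nothing says that they mark a shared animal or day. The differences between replicates 1 and 2 of the 2 groups were correlated at -0.272 over 12298 genes, so the numbers were not taken to pair the samples. Fewer samples lower the power of each fit, and the cause of the other changes was not tested. In the simulated counts, changes of 0.5 on the log2 scale were mostly missed, with 11.5% recovered by limma. Those counts gave every gene the same spread beyond counting error, so this share does not hold for each gene. The fit itself called Trim72 at -0.56 and Ehd3 at 0.49.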

Other observations

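Within 150 kb on either side of Trim72, 12 other genes passed the filter on low values and none was called by limma or edgeR. An unadjusted limma p under 0.05 was found for 2 of the 12, beside 15.2% of all genes. DESeq2 called Pycard, with 5.79% of all genes called. Pycard, the gene for the inflammasome adaptor ASC, was at 216, 150 and 244 normalized counts in WT and at 111 and 58.3 in EID/EID samples (log2 fold change -1.30, limma adjusted p = 0.108). Gm15533, an antisense transcript that shares 617 bases of exon with Trim72, was at 49.5, 47.1 and 43.5 in WT and at 30.4 and 25.1 in EID/EID samples (log2 fold change -0.73, limma adjusted p = 0.205). Of the 12 genes, 3 lay below and 1 above the WT range in both EID/EID samples, beside 15.9% of all genes below and 32.6% in either direction. This locus and both genes were chosen after their values were seen. Anxa4 lies 2.53 Mb from the end of Dysf on chromosome 6, and its groups overlapped.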
